A study of Mus musculus with 10 samples.

Results

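The angiomotins (*Amot*, *Amotl1* and *Amotl2*) and 7 genes of the Hippo pathway (*Yap1*, *Wwtr1*, *Tead1*, *Tead2*, *Lats1*, *Lats2* and *Ankrd1*) were followed in AtT20/D16v-F2 cells with and without depletion of the transcription factor gene *Creb3l1*. They are 10 of the 53801 genes in the count table. The set was chosen by the counts of *Amotl2*, which were far higher in the knockdown line, so the values of *Amotl2* are given as a description, with no test. AtT20 is a mouse anterior pituitary corticotroph line that came from a pituitary tumour. Each group was 1 stable line made with a lentivirus, the control with a non-targeting shRNA and the other with a *Creb3l1* shRNA (*Creb3l1*-shRNA1), and 5 libraries of each were sequenced. The labels name no further allele, agent or time for either line. Both hairpins are expressed from an integrated virus, in a single line each. An effect of the hairpin and a difference between the lines therefore cannot be told apart in these libraries. The paper also made a line with another *Creb3l1* hairpin, which is not among these libraries. Libraries are biological replicates according to the paper, but the labels do not say how the cultures were separated, so the tests measure the spread between these libraries.

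The Hippo pathway is a kinase cascade that restrains cell growth. The MST kinases (*Stk3* and *Stk4*) activate the LATS kinases with the help of the MOB1 scaffolds, and LATS phosphorylates the coactivators YAP (*Yap1*) and TAZ (*Wwtr1*), which are then held in the cytoplasm or degraded. Unphosphorylated YAP and TAZ bind the TEAD transcription factors in the nucleus. Angiomotins are scaffolds of tight junctions and actin filaments that bind YAP and TAZ and also promote LATS activity. *Amotl2*, *Lats2* and *Ankrd1* are known target genes of YAP, TAZ and TEAD in other cells, and *Creb3l1* encodes a membrane-bound bZIP factor.

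The core of the DNA word that TEAD factors bind, GGAATG or, on the other strand, CATTCC, was sought in promoter windows from 250 bases before to 50 bases after each start of transcription in RefSeq for GRCm38.p6, because several members are TEAD target genes elsewhere. A window was held for 9 of the 10 members, and none for *Tead1*. The word stood in the windows of *Amotl2*, *Yap1*, *Wwtr1*, *Ankrd1* and *Lats2*. Of all 32851 windows 14.7% held it, and of 27025 genes 16.6%. The stretches of the members that carried it upstream of the start are shown 5′ to 3′ on the strand of the gene, with the TEAD word in capitals:
*Amotl2*, chr9:102717727-102717756, plus strand: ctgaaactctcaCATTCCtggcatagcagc
*Yap1*, chr9:8004720-8004749, minus strand: cgggagtctgcaGGAATGtagcgacgcgca
*Wwtr1*, chr3:57576029-57576058, minus strand: ggtaaactcaaaGGAATGcagataggcgct
*Ankrd1*, chr19:36120037-36120066, minus strand: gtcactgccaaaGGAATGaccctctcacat
*Ankrd1*, chr19:36119950-36119979, minus strand: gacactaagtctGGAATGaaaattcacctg

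In *Amotl2* the word lay on the strand opposite to the gene, at position -65 from the RefSeq start, and the whole stretch fell inside an exon of the GENCODE annotation, which starts upstream of the RefSeq one. Both *Ankrd1* stretches, at -210 and -123, were likewise covered by a GENCODE exon, and those of *Yap1* (-141) and *Wwtr1* (-136) were not. In *Lats2* the word was at position 5 after the start. The core of the G-box, GACGTG or, on the other strand, CACGTC, a word bound by CREB3 family factors, stood in the window of *Amotl1* at -123, and in 6.38% of all windows. The E-box CACGTG, which reads the same on both strands and shares letters with the G-box core, stood in the windows of *Amot*, *Yap1* and *Lats2*, and in 7.15% of all windows. The G-box that the paper gives for Creb3l1 in the rat vasopressin promoter also contains CACGTG. A match says only that the letters are present, and binding was not measured here.

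**Figure D1:**
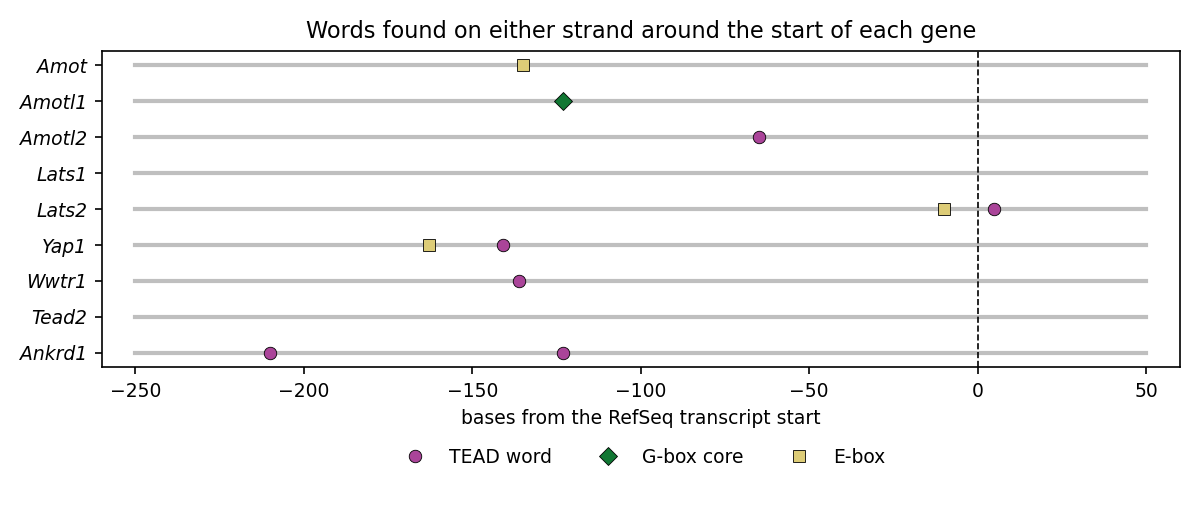
Positions of the TEAD word, the G-box core and the E-box in the promoter windows of the 9 members that have one, as distance in bases from the RefSeq start of transcription. The TEAD word of *Amotl2* stands at -65, and *Ankrd1* holds 2 TEAD words.

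The files held whole-number counts per gene, 17420698 to 22205107 in a library. Values below are normalised counts, which are counts divided by the effective size of the library after TMM scaling and brought to the mean effective size. In non-targeting replicate 3 the non-coding RNA gene *Gm42418* accounted for 4.13% of the counts in the library. This library had a TMM factor of 0.953, where those of the others were close to 1. *Creb3l1* itself fell from 3689 ± 148 in the control to 1090 ± 59.2 in the knockdown line (SD, n = 5 each), a log2 fold change of -1.76 (SE 0.036). All 7 corticotroph markers examined, *Pomc* and *Tbx19* among them, were detected. Their summed normalised count was 152696 to 163880 in the control and 110753 to 117503 in the knockdown libraries. Within this list 4 genes were called lower, *Pomc* (log2 fold change -0.51), *Pcsk1* (-0.46), *Tbx19* (-0.27) and *Nr3c1* (-0.15), and 2 were called higher, *Neurod1* (0.62) and *Pitx1* (0.36, called in 10 of 17 settings). By quantitative PCR the paper reported lower *Pcsk1* but unchanged *Pomc* mRNA in its *Creb3l1* knockdown lines, the line with the other hairpin among them. The reason for the difference in *Pomc* was not tested. Of the markers of other cell types, *Prl*, *Tshb*, *Fshb* and *Pou1f1* (other hormone cells), *Cdh5* and *Kdr* (endothelium), *Lum* (fibroblasts) and *Ptprc* (immune cells) had no count in any library. The 3 endothelial markers summed to 10.6 to 18.3 in the control and 4.28 to 7.45 in the knockdown libraries. All of this was *Pecam1*, called lower (log2 fold change -1.08), though not in all 17 settings. Fibroblast markers summed to at most 18.1, mostly *Pdgfra* (3 to 10 counts in control, 8 to 12 in knockdown libraries) and *Pdgfrb*. Those of immune cells reached at most 51.9 and those of other hormone cells at most 94.1. *Cd68* (-0.39) and *Nr5a1* (-0.32), the only tested gene of each list, were not called. In bulk RNA a smaller number of cells of a type and less RNA per cell cannot be told apart. The part of these marker levels in the differences described here was not tested.

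Of the 14336 genes with enough counts to be tested by edgeR's quasi-likelihood test, 5837 (40.7%) had an adjusted p under 0.01 and are said here to have been called. Higher levels in the knockdown line made up 20.6% of the tested genes and lower levels 20.1%. Of the 10 members 5 had enough counts for the fit. Of the 4 other than *Amotl2*, 3 were called, 2 higher (*Amotl1* and *Lats1*) and 1 lower (*Amot*). The normalised counts of the same 3 did not overlap between the lines, as held for 36% of all tested genes. The members were listed with earlier results of these data known, so nothing is read from these counts. The difference was at least 1.5-fold in 2 of the 3, *Amot* and *Amotl1*, where 7.73% of all tested genes were called with such a difference. The 5 members in the fit had at least 72 counts in every library, and the other 5 had at most 5 counts in any.

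*Amotl2* had the largest difference among the members. It encodes angiomotin-like 2, which links junctions to radial actin filaments, and is read from the plus strand of chromosome 9 between 102716672 and 102733418 in GRCm38 (ENSMUSG00000032531). Its normalised counts were 464.7, 509.7, 458.5, 472.3 and 469.6 in non-targeting replicates 1 to 5 and 1475, 1675, 1589, 1537 and 1557 in *Creb3l1*-shRNA1 replicates 1 to 5. The lowest knockdown library thus lay far above the highest control library. The means were 475 ± 20.1 and 1566 ± 73.6 (SD, n = 5 each), a 3.29-fold difference or 1.72 on the log2 scale (SE 0.043). Of all tested genes 52 (0.363%) had a log2 fold change as high or higher. Because the set was chosen for this difference, this share is a description only. The log2 fold change of *Amotl2* was 1.70 to 1.75 when each library was left out in turn. This range too only describes the values for which the set was chosen.

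*Amotl1* (ENSMUSG00000013076, chromosome 9 from 14541966 to 14645056, minus strand) encodes the second angiomotin-like scaffold, found at tight junctions. Its normalised counts were 86.5, 79.5, 88, 87.3 and 98.1 in the control libraries and 124, 138, 153, 132 and 165 in the knockdown libraries. All knockdown values were above all control values, though the level was low in both lines. The log2 fold change was 0.69 (SE 0.11) and was called higher. *Amot* (ENSMUSG00000041688, chromosome X from 145446425 to 145505181, minus strand), the founding angiomotin, went the other way. It had normalised counts of 180, 220, 247, 201 and 192 in the control and 121, 138, 113, 129 and 157 in the knockdown libraries. The groups did not overlap here either, and the log2 fold change of -0.65 (SE 0.096) was called lower. *Amot* and *Amotl1* were the most variable tested members, with coefficients of variation of 12.6% and 7.56% in the control and 13.0% and 11.7% in the knockdown libraries. They also had the fewest counts of the tested members, and the part of counting error in this spread was not tested.

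**Figure D2:**
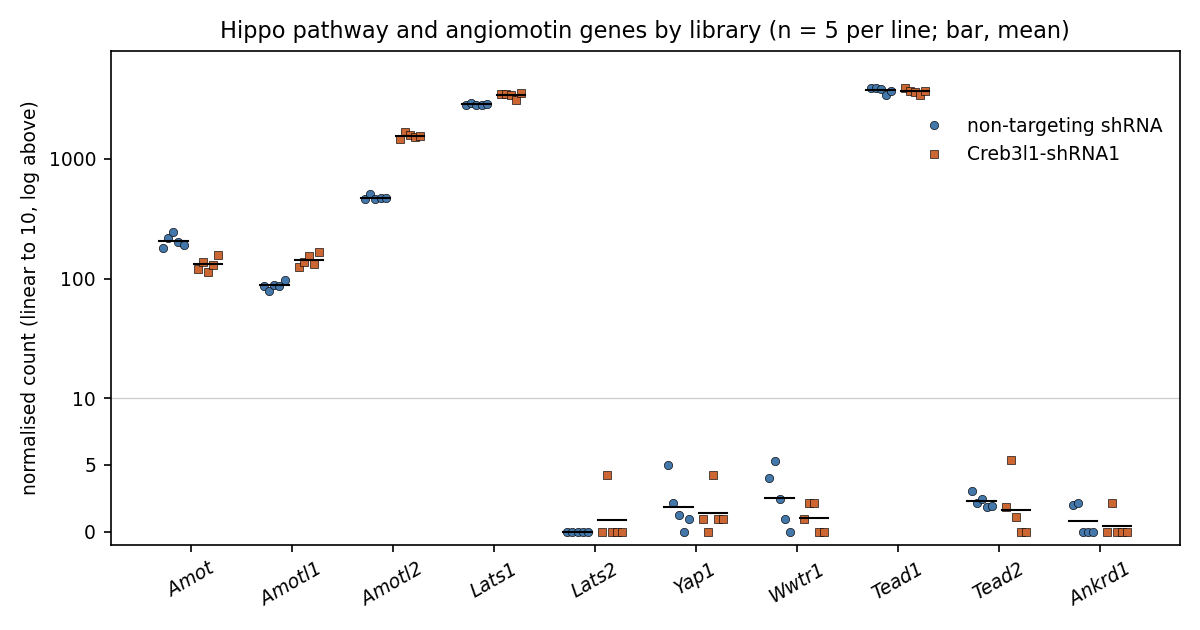
Normalised counts of the 10 members in each of the 5 non-targeting and 5 *Creb3l1*-shRNA1 libraries, on an axis that is linear up to 10 and logarithmic above. Each point is a library and each bar the mean of 5. *Amotl2* averages 475 in the control and 1566 in the knockdown line and *Amot* 208 and 132, *Tead1* overlaps between the lines, and *Yap1*, *Wwtr1*, *Tead2*, *Lats2* and *Ankrd1* stay near 0.

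Set per length, as CPM (the count scaled to a library of 1000000) per kilobase of exon, the 3 angiomotins summed to 5.38 ± 0.21 in the control and 13.8 ± 0.64 in the knockdown line (SD, n = 5 each). *Amotl2* made up 69.3% ± 2.12 of the family's level in the control and 89.3% ± 0.98 in the knockdown libraries. The share of *Amot* was 22.7% ± 2.27 and 5.62% ± 0.66, and that of *Amotl1* 8.03% ± 0.80 and 5.07% ± 0.52, in the same order. *Amotl1* was therefore higher in the knockdown line as a level but smaller as a share of the family. *Amot* stood above *Amotl1* in every control library on this scale, at 1.22 ± 0.15 against 0.43 ± 0.033 CPM per kilobase. In the knockdown libraries the ranges of the pair overlapped, at 0.77 ± 0.10 and 0.70 ± 0.082. Within a library, *Amot* was the lower of the pair only in knockdown replicate 3 (0.66 against 0.75). These shares contain the *Amotl2* difference for which the set was chosen, and no test was made of them.

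*Lats1* encodes the only LATS kinase with more than a trace of RNA in these cells and lies on chromosome 10 from 7681214 to 7716460 on the plus strand (ENSMUSG00000040021). Its normalised counts were 2822, 2925, 2833, 2808 and 2866 in the control and 3499, 3498, 3441, 3106 and 3522 in the knockdown libraries. Knockdown replicate 4 was below the other 4 knockdown libraries but above all control libraries. The log2 fold change of 0.26 (SE 0.031) was called higher. Correction of each library for GC content and length by offsets lowered it to 0.15, still called. *Lats2*, the paralogue, had no count in the 5 control libraries, a count that allows up to 3 counts, or 0.030 CPM, over the group as a one-sided limit, and 4 counts in knockdown replicate 2 only.

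*Tead1* (ENSMUSG00000055320, chromosome 7 from 112679318 to 112906807, plus strand) encodes a TEAD factor, the DNA-binding partner of YAP and TAZ. Its normalised counts were 3925, 3886, 3835, 3445 and 3708 in the control and 3897, 3715, 3640, 3403 and 3725 in the knockdown libraries. The lines overlapped almost fully, with replicate 4 the lowest library of each. The log2 fold change was -0.032 with a 95% interval of -0.10 to 0.041 and was not called. With offsets for GC content and length it was -0.16 and was called lower. On the scale of CPM per kilobase *Tead1* made up 87.6% ± 0.93 of the TEAD family in the control and 88.9% ± 0.83 in the knockdown line. *Tead4* held most of the rest, with 12.2% ± 0.94 and 11.0% ± 0.76, and its log2 fold change of -0.21 did not pass the test (adjusted p = 0.077, edgeR). *Tead2* had 2 or 3 counts in each control library and 2, 5, 1, 0 and 0 in the knockdown libraries. *Tead3* had 1 count in all 10 libraries together.

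RNA of the coactivators was barely detected. *Yap1* (chromosome 9 from 7931999 to 8004596) had 5, 2, 1, 0 and 1 counts in the control and 1, 0, 4, 1 and 1 in the knockdown libraries. Pooled over the 5 libraries, this is 0.091 CPM (95% exact Poisson interval 0.042 to 0.17) and 0.067 CPM (0.027 to 0.14), and the intervals cover counting error only. *Wwtr1* (chromosome 3 from 57455649 to 57575910) had 4, 5, 2, 1 and 0 counts and then 1, 2, 2, 0 and 0, or 0.12 CPM (0.063 to 0.21) and 0.048 CPM (0.016 to 0.11). The intervals of the lines overlapped for both coactivators, and no test of the difference was made on so few counts. *Ankrd1*, a nuclear ankyrin-repeat protein gene used as a readout of YAP and TAZ, had 2 counts in each of 2 control libraries and 2 counts in 1 knockdown library.

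Ordered by CPM per kilobase, *Lats1* was highest in both lines, at 19.3 ± 0.31 in the control and 23.1 ± 1.18 in the knockdown line. *Tead1* followed at 13.7 ± 0.70 and 13.4 ± 0.65, and *Amotl2* was the third at 3.72 ± 0.16 and 12.3 ± 0.58. *Amot* and *Amotl1* came next, and the 5 untested members were each at or below 0.026. The order of the 5 tested members was the same when the longest transcript stood in for the exon length. Genes that overlap a member in the annotation, on either strand, had at most 7 counts in any library.

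**Figure D3:**
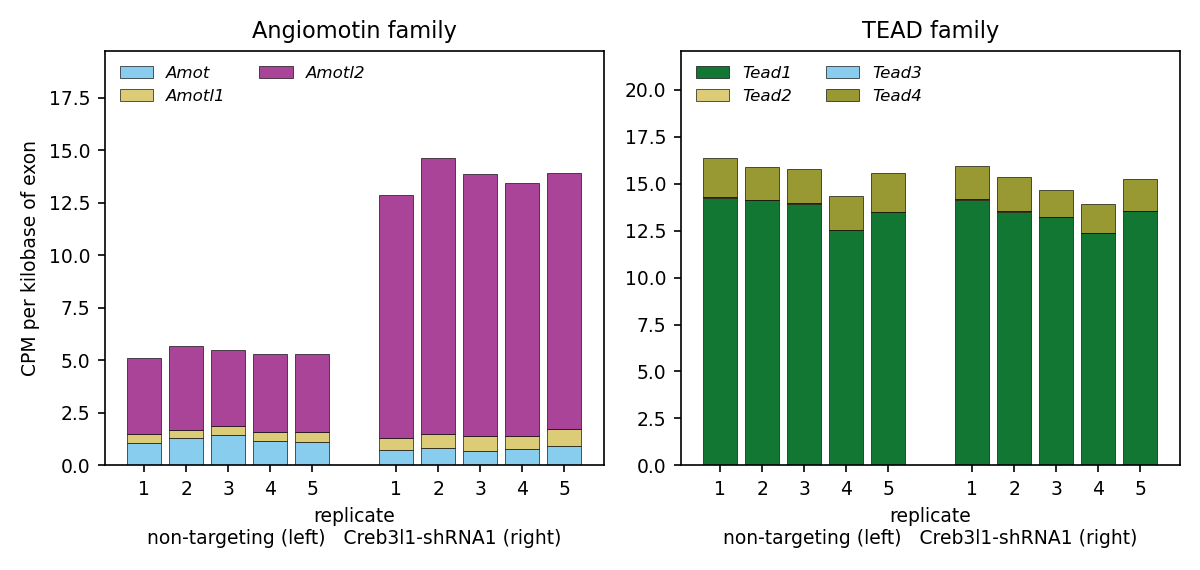
Levels of the angiomotin and TEAD families as CPM per kilobase of exon, with 1 stacked bar for each library, the 5 non-targeting libraries on the left and the 5 *Creb3l1*-shRNA1 libraries on the right of each panel, and 1 colour for each gene. *Amotl2* reaches a mean of 12.3 in the knockdown line while the means of *Amot* and *Amotl1* stay at or below 1.22, and *Tead1* is near 13 in both lines.

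Among the other genes of the pathway, 6 lists of 123 genes in all were examined, and 100 of these genes were tested. Of the tested genes 56 (56.0%) were called, 37 higher and 19 lower, with a median log2 fold change of 0.087 against -0.0025 over all tested genes. This stands beside the 40.7% called of all tested genes (20.6% higher and 20.1% lower) and is not a test of the lists. The same shares stand beside each list below. The median SE was 0.040 in the lists and 0.053 over all tested genes. The median size of the log2 fold change was 0.18 and 0.15, in the same order. The part of the smaller SE in the share called was not tested. Of the 56 calls 43 were made in all 17 settings that kept the threshold.

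Of the upstream kinases and their regulators, 24 of 31 were tested and 15 were called (62.5%), 8 higher and 7 lower, with a median of 0.085. The core kinases *Stk4* and *Stk3* were not called, at log2 fold changes of -0.0032 (95% interval -0.066 to 0.059) and 0.19 (0.052 to 0.32). *Stk3* was called in 4 of the 17 settings and *Stk4* in none. *Nf2*, which encodes the membrane adaptor merlin, was higher by 0.23. *Map4k4*, a kinase that can phosphorylate LATS in parallel to MST, rose from 4460 ± 60.1 to 8149 ± 199 (SD, n = 5 each), a log2 fold change of 0.87 (SE 0.025, adjusted p = 3.3e-28, edgeR). *Dchs1*, a large cadherin upstream of the cascade, rose by 0.82 from few counts (18.6 ± 4.39 to 33 ± 5.09).

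The MOB1 scaffolds moved in opposite directions. *Mob1a* fell from 1626 ± 44.1 to 1024 ± 45.1, a log2 fold change of -0.67 (adjusted p = 3.5e-19, edgeR), and *Mob1b* rose from 717 ± 33.5 to 879 ± 90.6, a log2 fold change of 0.30 that was not called with offsets for GC content and length. Per kilobase, *Mob1a* was the larger part of the pair in both lines, with 87.7% ± 0.71 in the control and 78.5% ± 1.30 in the knockdown line. *Tnik*, a kinase of the MAP4K group, fell with a log2 fold change of -0.54. *Rassf2*, whose product binds MST kinases, fell by 0.78 from few counts (41.8 ± 11.2 to 24.6 ± 2.96). Its normalised counts overlapped between the lines, and the call was lost without non-targeting replicate 5.

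The STRIPAK complex is a PP2A phosphatase assembly that removes the activating phosphate of MST kinases. Of its 19 genes 18 were tested and 7 called (38.9%, near the 40.7% of all tested genes). Of the calls 5 were higher and 2 lower (6 and 1 when libraries were scaled by their totals), and the median was 0.086. *Strn*, the striatin scaffold, rose from 512 ± 36.2 to 858 ± 65.4 with a log2 fold change of 0.75 (adjusted p = 1.3e-14, edgeR). The PP2A scaffold subunit genes *Ppp2r1a* and *Ppp2r1b* rose by 0.23 and 0.13. *Cttnbp2* fell with a log2 fold change of -0.31. The call of *Ppp2r1b* was made in 12 of the 17 settings.

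Junction and polarity partners of the angiomotins had 27 of 30 genes tested and 14 called (51.9%), 8 higher and 6 lower, with a median of 0.031. The balance of this list turned to 6 higher and 9 lower with offsets for GC content and length, and to 5 higher and 6 lower without non-targeting replicate 4 or without *Creb3l1*-shRNA1 replicate 3. *Patj* and *Mpdz*, which encode multi-PDZ scaffolds that bind angiomotins, rose by 0.26 and 0.43 on the log2 scale. *Lin7a*, a small PDZ protein gene, rose from 24.6 ± 3.86 to 49.2 ± 4.88, a log2 fold change of 1.01. *Tjp3*, the gene of the tight junction protein ZO-3, fell from 2071 ± 133 to 1068 ± 40.5, a log2 fold change of -0.96 (adjusted p = 1.2e-22, edgeR). *Crb3*, a Crumbs polarity gene, fell by 1.13 from 44.1 ± 7.04 to 20.1 ± 5.72, and *Dlg5* by 0.27. *Cdh1* (E-cadherin) had at most 2 counts in any library.

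All 15 genes for the turnover of YAP, TAZ and angiomotins were tested and 10 were called (66.7%), 7 higher and 3 lower, with a median of 0.12. The ubiquitin ligase genes *Nedd4l* and *Nedd4*, whose products act on angiomotins, rose by 0.56 and 0.21 on the log2 scale, and *Btrc*, the F-box protein that recognises phosphorylated YAP and TAZ, rose by 0.25. *Tnks2*, a tankyrase gene for the marking of angiomotins for degradation, fell from 4988 ± 58.0 to 3631 ± 74.1, a log2 fold change of -0.46 (adjusted p = 1.6e-18, edgeR). *Wwp1* fell by 0.26 and *Skp1* by 0.10, the latter called in 10 of the 17 settings. Of 9 nuclear partners 5 were tested and 2 were called (40.0%, near the 40.7% of all tested genes). Both were higher, and the median over the 5 was 0.13. *Arid1a*, which encodes a subunit of the SWI/SNF chromatin remodelling complex, rose by 0.28. With offsets for GC content and length, and at an adjusted p under 0.05, 4 of the nuclear partners were called.

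Of 19 YAP/TAZ-TEAD target genes known from other cells, 11 were tested and 8 were called (72.7%), 7 higher and 1 lower, with a median of 0.28. With offsets for GC content and length the calls were 4 higher and 2 lower. *Gadd45a*, a growth arrest and DNA damage gene, rose from 585 ± 19.2 to 1670 ± 74.8 (SD, n = 5 each), a log2 fold change of 1.51 (SE 0.040, adjusted p = 9.9e-30, edgeR). *Nt5e*, the ecto-5′-nucleotidase CD73, rose from 306 ± 14.6 to 686 ± 30.6 with a log2 fold change of 1.17 (adjusted p = 4.2e-21, edgeR). *Myof*, the membrane repair protein myoferlin, rose by 0.45. *F3*, the tissue factor that starts coagulation, fell from 148 ± 18.8 to 67.3 ± 14.5, a log2 fold change of -1.14 (adjusted p = 3.7e-10, edgeR). The classical readouts *Ccn1* and *Ccn2* were among the 8 that could not be tested, with at most 8 counts and 1 count in a library. Leaving out libraries or changing the method gave 6 to 8 calls in this list at the same threshold.

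**Figure D4:**
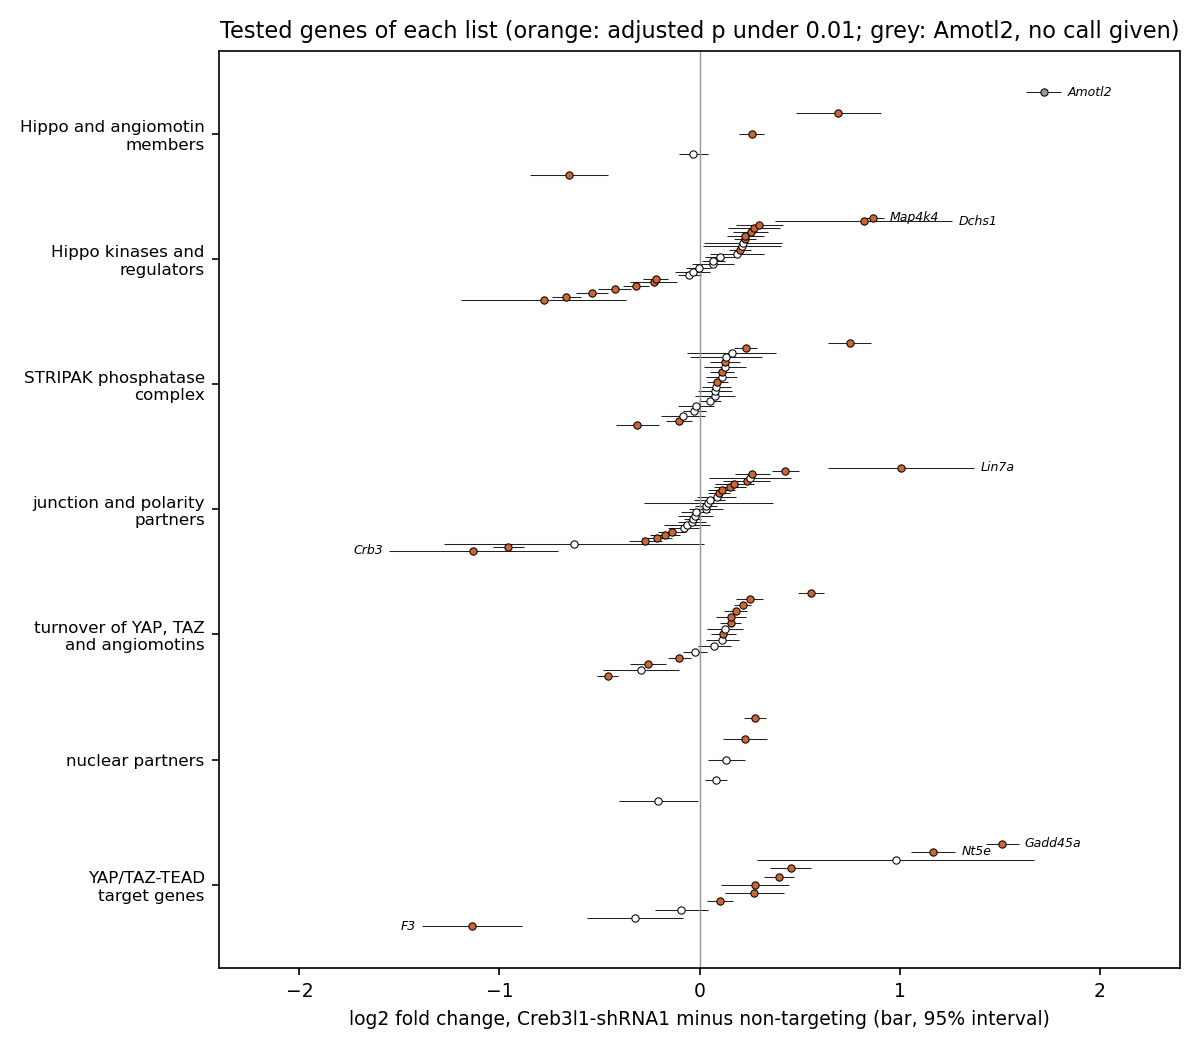
Log2 fold changes (*Creb3l1*-shRNA1 minus non-targeting) of the tested members and of the tested genes of the 6 lists, with bars for the 95% interval, orange points for an adjusted p under 0.01, white points for the rest and a grey point for *Amotl2*, for which no call is given. Most genes lie near 0, and *Amotl2* (1.72) and *Gadd45a* (1.51) stand furthest to the right.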

How the data were processed

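RNA was measured in 10 libraries, 5 of each line, grouped by the sample labels. According to the paper's methods, the authors prepared poly(A) libraries with a stranded kit, used STAR for alignment to GRCm38 and featureCounts for reads per Ensembl gene. They deposited whole-number counts without normalisation, and the strand setting of the counting is not given in the sources used here.

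The test across all genes was that of edgeR 4.0.16 under R 4.3.3 (filterByExpr, TMM, robust quasi-likelihood fit without covariates, Benjamini-Hochberg adjustment, threshold 0.01), and standard errors came from the log2 fold change and F statistic. DESeq2 1.42.0 was an alternative, as were RLE factors, library totals, other filters, omission of each library in turn, a block for the replicate number, a threshold of 0.05 and offsets for GC content and length (splines with 5 degrees of freedom). The fit was tested on simulated data. Symbols matched 53620 of 53801 identifiers, and gene positions came from GENCODE for GRCm38. The members and lists were chosen with earlier results of these data known. The genes named are the members, *Creb3l1* and the 3 called genes at each end of a list, and others were chosen after their values were seen. Some genes that this rule names are not reported here. Protein sequences were not used here. At 17420698 to 22205107 counts a library, genes with few reads carry the largest counting error.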

Additional observations from a re-analysis of the deposited data

Results flagged for a closer look

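Values that stood apart from the other libraries of their line by Dixon's criterion were sought in the 5 tested members, 10 groups of 5 libraries in all. There were 2, where chance gives about 0.5. The flag for *Amotl2* describes its libraries within a line and is not a test between the lines. The normalised count of *Amotl2* in non-targeting replicate 2 was 509.7, while the remaining 4 control libraries lay between 458 and 472. Without this library its log2 fold change was 1.75. The normalised count of *Lats1* in *Creb3l1*-shRNA1 replicate 4 was 3106, while the remaining 4 knockdown libraries lay between 3441 and 3522. Without this library its log2 fold change was 0.29.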

How the results depend on the processing

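The number of genes called was 5408 (without non-targeting replicate 5) to 6026 (without *Creb3l1*-shRNA1 replicate 2) when each library was left out, 5542 with DESeq2, 6086 with no filter, 6156 with offsets for GC content and length and 7209 at an adjusted p under 0.05. No log2 fold change of a tested member or of *Creb3l1* changed sign under these settings, but the calls among junction and polarity partners turned from 8 higher and 6 lower to 6 and 9 with the offsets. The count of nuclear partners called moved from 2 to 4 with the offsets and to 4 at an adjusted p under 0.05, and *Tead1* came to be called lower with the offsets (-0.16, adjusted p = 9.9e-07, edgeR). The cause was not tested. Leaving out each library gave log2 fold changes of -0.72 to -0.59 for *Amot*, 0.63 to 0.74 for *Amotl1*, 0.25 to 0.29 for *Lats1* and -0.062 to -0.0048 for *Tead1*. Across all genes the replicate numbers showed no clear pairing. Deviations of libraries with the same number correlated between -0.060 and 0.036, and 2 of 5 control libraries correlated best with their own number. With the replicate number as a block 6013 genes were called. The SE was then 0.024 for *Tead1* and 0.026 for *Lats1*, against 0.035 and 0.031 without the block. Those of *Amot* and *Amotl1* hardly changed (0.097 and 0.10, against 0.096 and 0.11). A pairing in single genes was not tested. *Yap1*, *Wwtr1*, *Tead2*, *Lats2* and *Ankrd1* had too few counts to be tested, and activity of the pathway through phosphorylation or protein location was not measured by these RNA counts.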

Other observations

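The genes around *Amotl2* were chosen after their values were seen. Of the genes within 250 kb of it, 4 were tested, and all 4 were called, in both directions, where 40.7% of all tested genes were called. The same distance held 2 called of 2 tested genes around *Tead1*, 3 of 7 around *Amotl1* and 5 of 9 around *Lats1*. *Ky* and *Cep63* had log2 fold changes of 0.29 and 0.35, and *Anapc13* and *Ryk* of -0.40 and -0.45. Near *Tead1*, *Rassf10*, a member of the RASSF family, fell from 476 to 319 on average (log2 fold change -0.58, adjusted p = 4.8e-09, edgeR), and *Parva*, which encodes the focal adhesion protein alpha-parvin, rose from 1229 to 1543 (0.33, adjusted p = 3.5e-10, edgeR). *Tgfb2*, a target gene of YAP and TAZ elsewhere, had 7.13 ± 2.72 normalised counts in the control and 14.0 ± 3.73 in the knockdown libraries (SD, n = 5 each), which did not pass the test (adjusted p = 0.015, edgeR) although the groups did not overlap.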
